A study of Homo sapiens with 48 samples.

Results

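The genes described here encode subunits of the proteasome and of its regulatory particles, and 3 chaperones that share their naming scheme. They were chosen by name: a symbol made of PSMA, PSMB, PSMC, PSMD or PSME and a number, with a mean of at least 1 CPM (read count scaled to library size) over the 48 libraries. Of the 25066 genes in the count table, 44 started with such a name and 41 were taken as members. PSMA8 and PSMB11, the subunits of testis and thymus proteasomes, fell below the minimum with 134 and 2 reads over all libraries. PSMC3IP was left out because its product is not a proteasome subunit.

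The study measured RNA by sequencing in TMD8 and HBL1, established lines of diffuse large B cell lymphoma of the activated B cell type, both engineered to carry Cas9. Cells of each line were given the solvent DMSO or 1 of 3 inhibitors and collected after 3, 6 or 24 h, which makes 24 groups of 2 libraries. NGI-1 (used at 5 µM) inhibits the oligosaccharyltransferase that attaches N-linked sugars to proteins in the endoplasmic reticulum, acalabrutinib (50 nM) inhibits Bruton's tyrosine kinase, and copanlisib (20 nM) inhibits phosphoinositide 3-kinases. The labels do not say whether the replicates were separate cultures, so a p-value here speaks for the scatter of 2 libraries per group, which may be technical.

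In what follows a gene is called where edgeR's quasi-likelihood test gave a Benjamini-Hochberg adjusted p under 0.05 over the 13881 genes tested, and changes are log2 values with their standard errors. The libraries held between 7165377 and 11999050 reads in genes. All 9 B cell markers averaged at least 1 CPM, with a sum of 4461 to 8333 CPM per library. None of 8 T and NK cell markers and 1 of 7 myeloid markers (CSF1R) did so. Of 8 stromal or epithelial markers 5 did, with a sum of 8.16 to 46.3 CPM. In RNA from whole cultures, a smaller number of cells of one state and less RNA per cell cannot be told apart.

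The proteasome degrades proteins tagged with ubiquitin. Its 20S core is a stack of rings of alpha and beta subunits, and 3 of the beta subunits cut peptide bonds (PSMB5, PSMB6 and PSMB7). In lymphoid cells and after interferon these are partly replaced by PSMB8, PSMB9 and PSMB10, which form the immunoproteasome and favour peptides that fit MHC class I molecules. The 19S particle caps the core: its ATPases (PSMC genes) unfold substrates, and its other subunits (most PSMD genes) bind and remove ubiquitin. PSME1 and PSME2 encode the alternative cap PA28 alpha-beta. Subunit genes are known to be induced together by the transcription factor NRF1 (gene NFE2L1), a glycoprotein of the endoplasmic reticulum that the sugar-removing enzyme NGLY1 and the protease DDI2 turn into an active factor.

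Promoter windows from RefSeq (build GRCh38.p14, 250 bases before and 50 after a transcript start) were given for 36 of the 41 genes, in 43 windows. PSMA7, PSMB1, PSMB6, PSMB7 and PSMD4 had no window. The interferon response core, which is GAAA repeated after any 2 bases, was searched on both strands and was in windows of 6 of the 36 genes (16.7%), against 4.38% of 27305 genes. These 6 stretches of 30 bases are shown because immunoproteasome and PA28 genes are classical interferon targets. The core is in capitals, and reads as TTTC repeated where it lies on the opposite strand.
PSMB8, chr6:32844032-32844061, minus strand: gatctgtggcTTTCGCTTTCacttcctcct
PSMB10, chr16:67936852-67936881, minus strand: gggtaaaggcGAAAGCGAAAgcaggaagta
PSME1, chr14:24136189-24136218, plus strand: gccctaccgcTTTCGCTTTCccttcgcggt
PSME2, chr14:24146619-24146648, minus strand: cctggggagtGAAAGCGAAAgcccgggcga
PSMA4, chr15:78540155-78540184, plus strand: atagtgaagaGAAAATGAAAggagagcgcc
PSMB4, chr1:151399495-151399524, plus strand: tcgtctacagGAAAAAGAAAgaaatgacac

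The cores of PSMB8, PSMB10, PSME1 and PSME2 lay close to a listed start, and that of PSMB8 was at one of its 2 listed starts. The antioxidant response element core TGACNNNGC, the kind of site that NRF1 and its relative NRF2 bind, was in windows of 13 genes (36.1%, against 16.1% of all genes) on either strand. The CCAAT box CCAAT was in 18 genes (50%, against 39.7%) and the GC box GGGCGG in 24 (66.7%, against 48.3%). These were also searched on both strands. Matches of different motifs shared bases in 1 place, a CCAAT box and a GC box of PSMA4. The 250 bases before the starts of PSMB10, one of the immunoproteasome genes, and PSMD12, one of the 19S genes with the largest changes, are shown with the interferon core and the antioxidant core in capitals.
PSMB10, chr16:67936851-67937100, minus strand: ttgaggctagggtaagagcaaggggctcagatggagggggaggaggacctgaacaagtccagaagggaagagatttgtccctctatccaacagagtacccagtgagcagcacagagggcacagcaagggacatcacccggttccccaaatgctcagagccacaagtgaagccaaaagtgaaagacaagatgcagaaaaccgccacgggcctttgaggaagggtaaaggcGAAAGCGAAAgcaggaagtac
PSMD12, chr17:67366578-67366827, minus strand: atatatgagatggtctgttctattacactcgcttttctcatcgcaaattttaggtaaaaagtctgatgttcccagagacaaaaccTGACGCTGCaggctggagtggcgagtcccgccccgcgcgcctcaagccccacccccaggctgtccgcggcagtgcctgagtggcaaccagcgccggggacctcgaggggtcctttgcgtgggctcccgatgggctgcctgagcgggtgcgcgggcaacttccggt

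A match is a description of letters in the window, and binding was not measured.

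In DMSO, the levels of the members spread widely per length of transcript. On the scale of CPM per kilobase, averaged over the 6 DMSO libraries of a line, PSMB4 and PSMB3, structural subunits of the beta ring, were highest: PSMB4 at 262 in TMD8 and 247 in HBL1, PSMB3 at 215 and 223. At the low end stood PSMB2, also a beta ring subunit, at 17.3 in TMD8. PSME4, which encodes the nuclear activator PA200, was at 20.1 in TMD8 and 31.3 in HBL1. Among the immunoproteasome genes, PSMB8 was at 76.7 and 70.9, PSMB10 at 86.4 and 74.5, and PSMB9 at 29.6 and 32.6. The lengths came from a GRCh38 annotation that is not the authors'. In that annotation exons of 15 members overlapped those of another gene, as PSMB8 and PSMB9 with PSMB8-AS1, and 12 members had named pseudogenes, most for PSMC1, so their counts are less certain where reads could be shared.

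Between the lines, 19 of 41 members were higher in TMD8 and 10 lower in the mean of the DMSO libraries over the 3 times, while 39.3% of all genes tested were higher and 39.3% lower. The members thus differed by gene and not in one direction. PSMA2, an alpha ring subunit, ranged from 194 to 238 CPM in the 6 TMD8 libraries and from 85.3 to 124 in HBL1. PSMD14, the deubiquitinase of the 19S lid, ranged from 179.5 to 197 CPM against 80.3 to 95.3. PSMB5 and PSMB6, which are constitutive catalytic subunits, were higher in TMD8 by log2 differences of 0.65 ± 0.05 and 0.64 ± 0.05. In the opposite direction, PSMB1 ranged from 81.5 to 93.1 CPM in TMD8 and from 134.5 to 187 in HBL1. PSMD7, the partner of PSMD14 in the lid, ranged from 139.4 to 161 CPM against 241 to 296. The 6 libraries of one line did not overlap those of the other for these 4 genes with ranges.

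PSMD9 differed most. This gene encodes a chaperone of 19S base assembly. It had 0 reads in all 24 HBL1 libraries, whatever the treatment, and 431 to 710 reads in each TMD8 library. Its level in the 6 TMD8 DMSO libraries, 62.9 CPM, was at least 1210-fold higher than the 0.0521 CPM that 3 reads over the 6 HBL1 DMSO libraries would make. Genes beside it in RefSeq order shared the pattern. HPD, on one side, had 790 reads in TMD8 and 0 in HBL1, and WDR66 (CFAP251), on the other, had 12810 and 0. SETD1B had 15141 and 7 reads, and BCL7A 28237 and 1831. Further out, TMEM120B had 3596 reads in TMD8 and 8076 in HBL1, and MLXIP 12528 and 10170. Over the whole table, 17 genes with at least 10 CPM on average in TMD8 were at 0 in every HBL1 library, and 31 the other way round. DNA was not measured. PSMD9 could be compared between treatments only in TMD8, so 40 members had reads in HBL1.

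**Figure D1:**
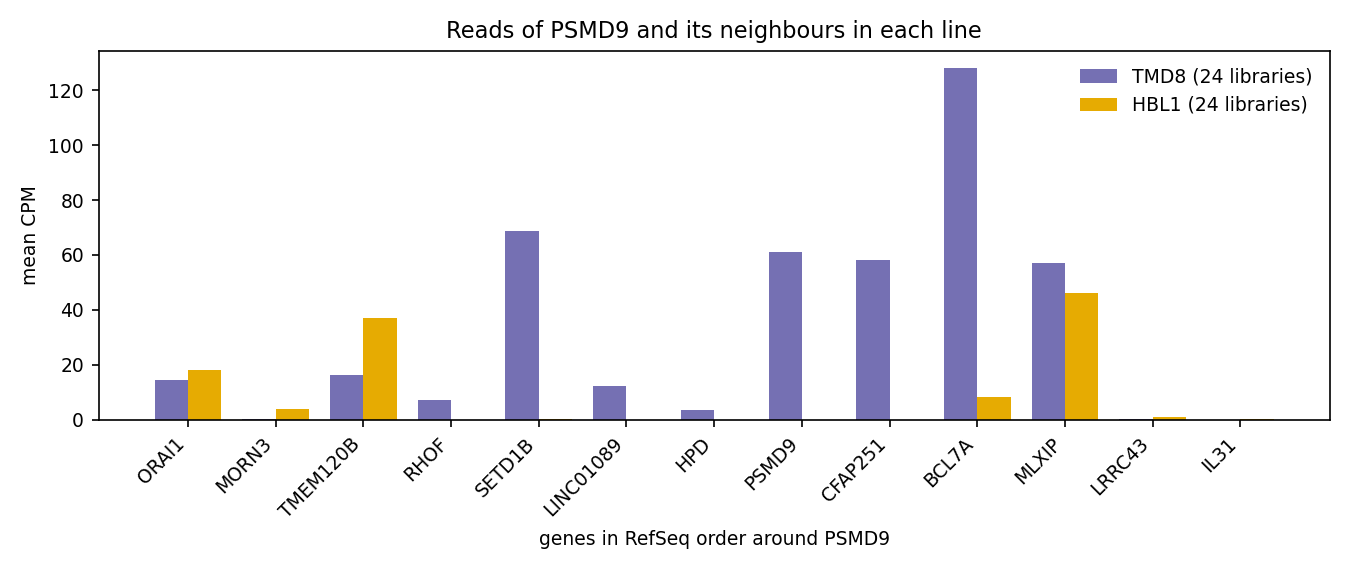
Mean CPM (y axis) over the 24 libraries of TMD8 and the 24 of HBL1 for PSMD9 and its neighbours in RefSeq gene order (x axis, not to distance). PSMD9 and the genes from RHOF to CFAP251 have bars in TMD8 and none visible in HBL1, while ORAI1, TMEM120B and MLXIP have bars in both lines.

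After 3 h no member differed from DMSO with any compound in either line by edgeR's quasi-likelihood test at an adjusted p under 0.05, and DESeq2 called 0 as well. Between 0 and 2 of the 41 members per comparison had an unadjusted p under 0.05, as did 5.07% to 11.9% of all genes. Of all genes, 0.771%, 0.389% and 1.76% were called in TMD8 with NGI-1, acalabrutinib and copanlisib, and 0.353%, 0.245% and 2.1% in HBL1. Summed over the 41 members, treated groups differed from DMSO by at most 3.45% at this time. In TMD8 both treated libraries lay below both DMSO libraries for 13, 8 and 5 members with NGI-1, acalabrutinib and copanlisib. In HBL1 they did so for 10, 10 and 13. Of all genes, 14.5% to 18% did so. Above lay 1, 5 and 2 members in TMD8 and 2, 0 and 0 in HBL1, against 15.3% to 20.9% of all genes.

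After 6 h PSME3 was the one member called by edgeR, in the copanlisib comparisons, where DESeq2 called 3 members in TMD8 and 1 in HBL1. PSME3 encodes PA28 gamma, a nuclear cap of the core. In TMD8 it stood at 395 and 403 CPM with DMSO and 316 and 321 with copanlisib, a log2 change of -0.33 ± 0.09 (adjusted p = 0.0094, edgeR's quasi-likelihood test). In HBL1 it had 406 and 367 CPM with DMSO, a mean of 387, and a mean of 316 with copanlisib, where the higher library had 333, a log2 change of -0.29 ± 0.09 (adjusted p = 0.031). The copanlisib libraries lay below the DMSO libraries in both lines. Of all genes tested, 7.46% were lower in TMD8 and 5.34% in HBL1, against 1 of 41 members in each line. The TMD8 call was lost without any 1 of its 4 libraries (highest adjusted p = 0.071), and the HBL1 call was lost without DMSO replicate 1 or copanlisib replicate 2. NGI-1 and acalabrutinib gave 0 calls among members by edgeR at 6 h, with 1 to 6 members and 9.71% to 17.7% of all genes at an unadjusted p under 0.05, while 4.33% and 4.64% of all genes were called in TMD8 and 1.13% and 5.65% in HBL1. DESeq2 gave 0 calls for these as well. At 6 h the summed level of the members was 1.54 to 6.64% below DMSO. With copanlisib, both treated libraries lay below both DMSO libraries for 27 members in TMD8 and 20 in HBL1. Of all genes, 25.5% and 22.7% did so. Both lay above for 3 members in each line, against 30.7% and 25.4% of all genes. With NGI-1 and acalabrutinib, 15 and 13 members lay below in TMD8 and 9 and 14 in HBL1. Of all genes, 18.3% to 23.6% did so. Above lay 1 and 1 in TMD8 and 8 and 9 in HBL1, against 19.4% to 24.2%.

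After 24 h most subunit genes were lower with each compound in each line. The difference from DMSO was moderate and spread over the core and the 19S particle, and the immunoproteasome gene PSMB8 went the other way in TMD8. The 3 compounds were each compared with the same 2 DMSO libraries of the line, so their comparisons are not independent of each other, and each is given on its own. Summed over the 41 members, TMD8 went from 7371 ± 85.9 CPM with DMSO (SD, n = 2) to 5941 ± 32.6 with NGI-1, 6019 ± 181 with acalabrutinib and 5794 ± 227 with copanlisib. In HBL1 the sum went from 7828 ± 221 to 6435 ± 86.1, 6398 ± 44.1 and 5864 ± 49.9. These sums were 19.4%, 18.35% and 21.4% below DMSO in TMD8 and 17.8%, 18.3% and 25.1% below it in HBL1.

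**Figure D2:**
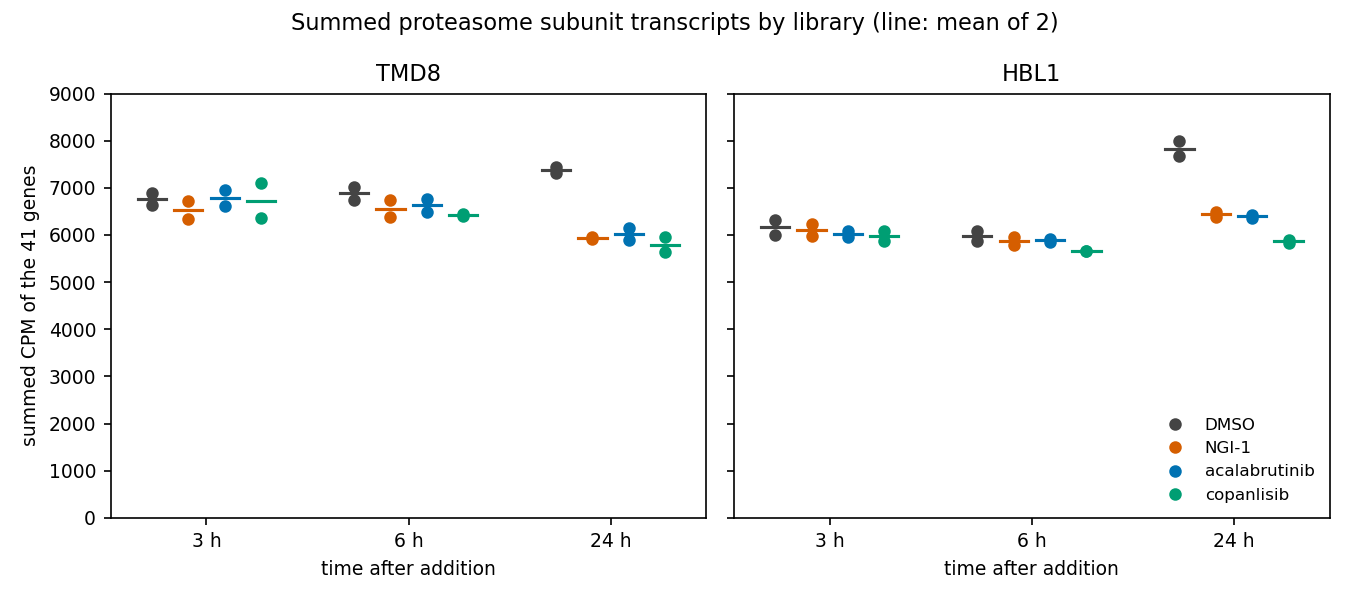
Summed CPM of the 41 proteasome genes (y axis) in every library at 3, 6 and 24 h (x axis), by treatment, for each line. Points are libraries and lines are means of 2. At 24 h the treated libraries lie below both DMSO libraries, whose own level is higher at 24 h than at 3 h.

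By edgeR's quasi-likelihood test, NGI-1 lowered 26 and raised 1 of the 41 members in TMD8, where 14.9% of all genes were lower and 15.7% higher. Acalabrutinib lowered 27 and raised 1, against 15.5% lower and 15.5% higher. Copanlisib lowered 30 and raised 1, against 16% lower and 15.8% higher. In HBL1 NGI-1 lowered 28, acalabrutinib 25 and copanlisib 31, and none raised a member. The shares of all genes lower there were 11.4%, 11.4% and 17.8%, and the shares higher were 7.95%, 7.62% and 12.7%. The median log2 change of the members was -0.34, -0.31 and -0.37 in TMD8, and -0.29, -0.28 and -0.43 over the 40 with reads in HBL1. The medians over all genes tested lay between -0.02 and 0.01. Lowered in both lines were 22 members with NGI-1 (84.6% of the TMD8 list and 78.6% of the HBL1 list), 21 with acalabrutinib (77.8% and 84%) and 28 with copanlisib (93.3% and 90.3%).

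Both treated libraries lay below both DMSO libraries for 35, 36 and 36 members in TMD8 with NGI-1, acalabrutinib and copanlisib, against 30.8%, 30.2% and 30.2% of all genes. In HBL1 they did so for 35, 36 and 38 members, against 29.5%, 30.6% and 34%. Without DMSO replicate 1 the HBL1 counts of lowered members fell to 12 with NGI-1 and 15 with acalabrutinib. They also fell to 15 without either NGI-1 library, and to 15 without acalabrutinib replicate 1.

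**Figure D3:**
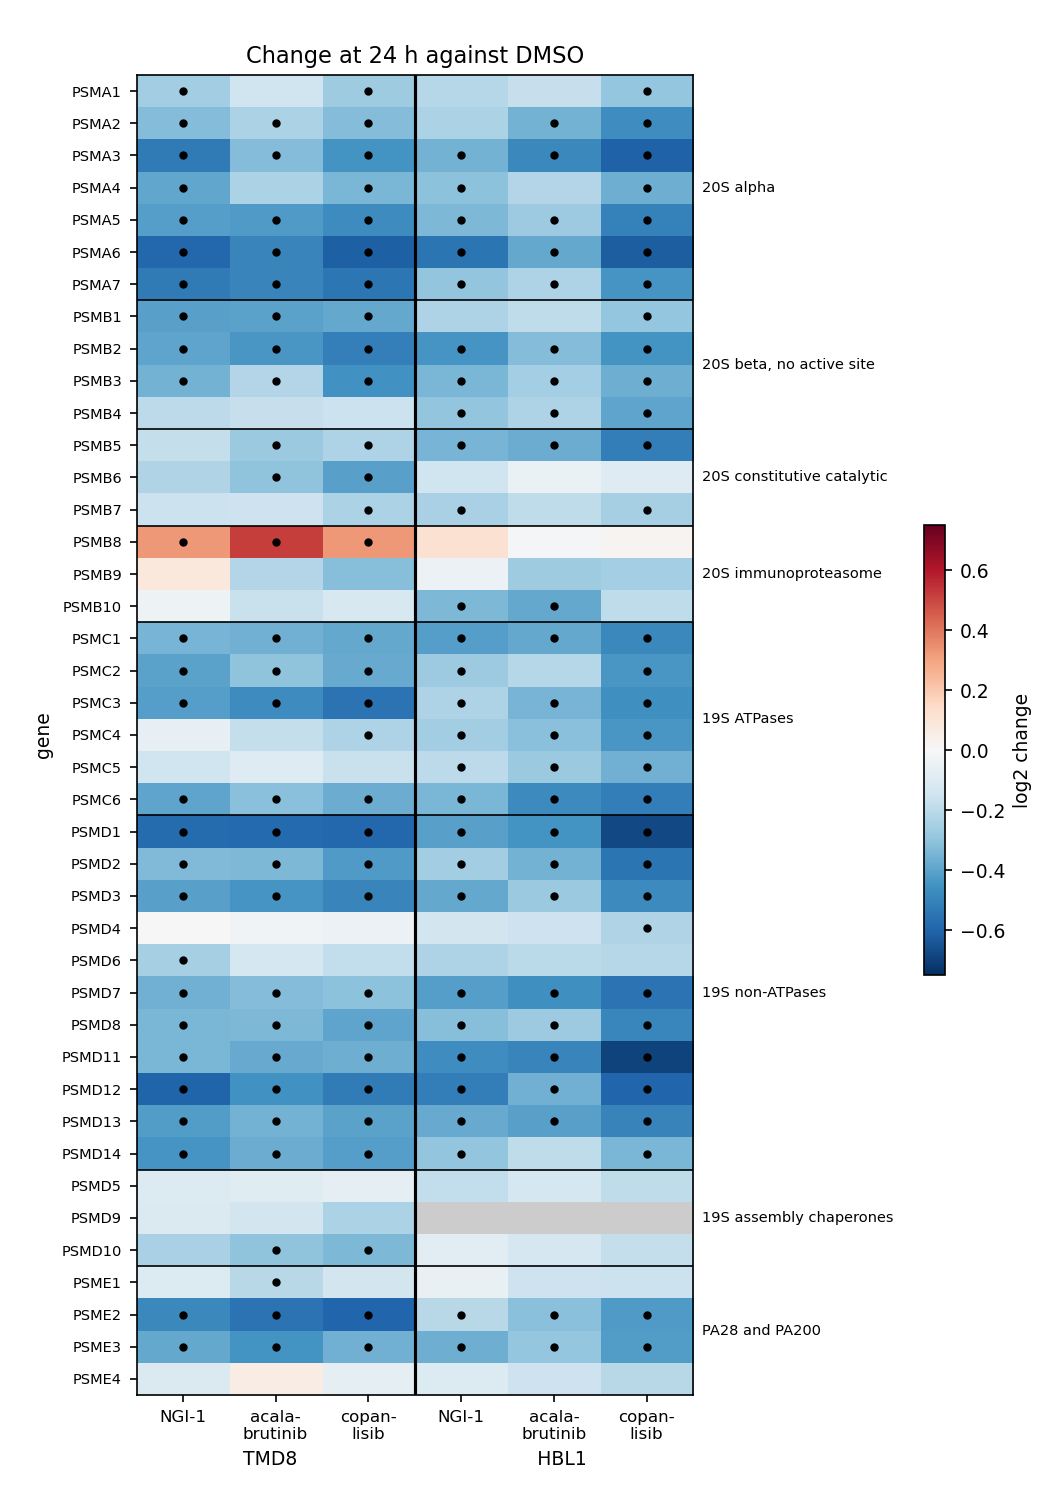
Log2 change against DMSO at 24 h (colour scale) of each member (y axis, grouped by class) for the 3 compounds in TMD8 and HBL1 (x axis). Dots mark changes called by edgeR at an adjusted p under 0.05, and grey marks PSMD9, which had no reads in HBL1. Blue fills most classes, and the red cells with dots are PSMB8 in TMD8.

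The alpha ring gates entry to the core. All 7 of its genes were lower with NGI-1 and with copanlisib in TMD8, and 5 with acalabrutinib. In HBL1 5, 5 and 7 were lower with NGI-1, acalabrutinib and copanlisib. PSMA6 was among the 3 most changed members by the naming rule for every compound. In TMD8 it stood at 157 and 179 CPM with DMSO, 105 and 118 with NGI-1, 107 and 132 with acalabrutinib and 100.3 and 119 with copanlisib. Its log2 changes were -0.59 ± 0.11 for NGI-1 (adjusted p = 4.1e-05), -0.49 ± 0.11 for acalabrutinib (adjusted p = 0.00038) and -0.61 ± 0.11 for copanlisib (adjusted p = 2.2e-05). In HBL1 it stood at 193 and 196 CPM with DMSO, 127 and 139 with NGI-1, 133 and 164 with acalabrutinib and 125 and 129 with copanlisib. No treated library reached a DMSO library in either line. The HBL1 log2 changes were -0.55 ± 0.11 for NGI-1 (adjusted p = 0.00020), -0.39 ± 0.11 for acalabrutinib (adjusted p = 0.0074) and -0.62 ± 0.11 for copanlisib (adjusted p = 1.8e-05) by edgeR. The HBL1 acalabrutinib call was lost without acalabrutinib replicate 1 (adjusted p = 0.22), and PSMA6 has pseudogenes that could share its reads.

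PSMA3 and PSMA7, also of the alpha ring, changed by log2 -0.53 and -0.53 with NGI-1 in TMD8 and by -0.35 and -0.30 in HBL1. With copanlisib the values were -0.45 and -0.54 in TMD8 and -0.61 and -0.44 in HBL1, each called lower. PSMA1 changed least in this ring, from -0.29 to -0.15 over the 6 comparisons.

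Of the 4 beta subunits without an active site, 3 were lower with each compound in TMD8. In HBL1 3, 3 and 4 were lower with NGI-1, acalabrutinib and copanlisib. PSMB4 was the gene not called in TMD8, with log2 changes of -0.20, -0.17 and -0.16 for the 3 compounds, and it was called in HBL1 with -0.30, -0.23 and -0.40. A test of the difference between the lines called PSMB4 for none of the compounds. With copanlisib PSMB2 was lower than with DMSO by 0.51 in TMD8 and by 0.45 in HBL1 on the log2 scale.

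Of the 3 constitutive catalytic genes, 0, 2 and 3 were lower in TMD8 with NGI-1, acalabrutinib and copanlisib, and 2, 1 and 2 in HBL1, with class medians from -0.28 to -0.18. PSMB5, which encodes the chymotrypsin-like site that proteasome inhibitors bind, stood in TMD8 at 145 and 142 CPM with DMSO, 128 and 125 with NGI-1, 125 and 112 with acalabrutinib and 128 and 116 with copanlisib. Its log2 changes were -0.18 ± 0.09 for NGI-1 (adjusted p = 0.12), -0.28 ± 0.09 for acalabrutinib (adjusted p = 0.014) and -0.23 ± 0.09 for copanlisib (adjusted p = 0.038) by edgeR, so that the acalabrutinib and copanlisib changes were called and the NGI-1 change was not. In HBL1 the libraries held 109 and 91.9 CPM with DMSO, 83.5 and 74.4 with NGI-1, 80.8 and 74.8 with acalabrutinib and 70.7 and 70.3 with copanlisib. All treated libraries there were below both DMSO libraries, with log2 changes of -0.35 ± 0.09 for NGI-1 (adjusted p = 0.0048), -0.37 ± 0.09 for acalabrutinib (adjusted p = 0.0029) and -0.52 ± 0.09 for copanlisib (adjusted p = 3.2e-05).

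PSMB6, which encodes the caspase-like site, stood in TMD8 at 116 and 115 CPM with DMSO, 99.0 and 98.4 with NGI-1, 102 and 85.2 with acalabrutinib and 91.9 and 81.6 with copanlisib. It was lower with acalabrutinib (-0.30 ± 0.09, adjusted p = 0.0081) and copanlisib (-0.41 ± 0.09, adjusted p = 0.00045) by edgeR, and at -0.22 ± 0.09 with NGI-1 (adjusted p = 0.052). The HBL1 libraries held 83.5 and 76.7 CPM with DMSO, 77.3 and 67.4 with NGI-1, 79.2 and 75.7 with acalabrutinib and 77.2 and 72.6 with copanlisib, and the treated libraries overlapped the DMSO range. None of the HBL1 changes was called. PSMB7, which encodes the trypsin-like site, stood in TMD8 at 144 and 134 CPM with DMSO, 124 and 123 with NGI-1, 128 and 121 with acalabrutinib and 119 and 115 with copanlisib, where the copanlisib change of -0.24 ± 0.08 was called (adjusted p = 0.014, edgeR). In HBL1 PSMB7 stood at 165 and 154 CPM with DMSO, 134 and 135 with NGI-1, 135 and 145 with acalabrutinib and 133 and 135 with copanlisib. There the changes with NGI-1 (-0.24 ± 0.08, adjusted p = 0.018) and copanlisib (-0.25 ± 0.08, adjusted p = 0.010) were called.

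Of the 3 immunoproteasome genes, 1 was higher and 0 lower with each compound in TMD8, and 1, 1 and 0 were lower in HBL1. PSMB8, the replacement for PSMB5, stood in TMD8 at 123 and 129 CPM with DMSO, 159 and 158 with NGI-1, 182 and 180.3 with acalabrutinib and 153 and 163 with copanlisib. Every treated library was above both DMSO libraries. The folds over DMSO were 1.25, 1.43 and 1.25 for NGI-1, acalabrutinib and copanlisib, with log2 changes of 0.32 ± 0.08 for NGI-1 (adjusted p = 0.0025), 0.52 ± 0.08 for acalabrutinib (adjusted p = 5.3e-06) and 0.32 ± 0.08 for copanlisib (adjusted p = 0.0027) by edgeR. These calls held under all 11 alternatives of each comparison. In HBL1 PSMB8 stood at 124 and 110.1 CPM with DMSO, 129.7 and 124 with NGI-1, 119 and 113 with acalabrutinib and 125 and 112 with copanlisib, with overlapping groups and changes of 0.12, -0.01 and 0.02, none called.

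PSMB9, the replacement for PSMB6 and the gene beside PSMB8 in the MHC region, stood in TMD8 at 36.4 and 40.3 CPM with DMSO, 35.99 and 45.2 with NGI-1, 34.7 and 31.1 with acalabrutinib and 27.7 and 34.1 with copanlisib. In HBL1 the values were 38.8 and 40.6 CPM with DMSO, 38.8 and 38.3 with NGI-1, 32.2 and 33.9 with acalabrutinib and 32.1 and 34.6 with copanlisib. No change was called in either line, with log2 values from -0.32 to 0.08. PSMB10, the replacement for PSMB7, stood in TMD8 at 102 and 113 CPM with DMSO, 103 and 107 with NGI-1, 103 and 88.8 with acalabrutinib and 101 and 97.4 with copanlisib, with none called. The HBL1 values were 102 and 98.8 CPM with DMSO, 81.4 and 77.4 with NGI-1, 76.1 and 77.99 with acalabrutinib and 87.7 and 88.3 with copanlisib, and every treated library was below both DMSO libraries. Its HBL1 changes with NGI-1 (-0.34 ± 0.09, adjusted p = 0.0049) and acalabrutinib (-0.38 ± 0.09, adjusted p = 0.0017) were called by edgeR, and that with copanlisib was not (-0.19 ± 0.09, adjusted p = 0.098).

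**Figure D4:**
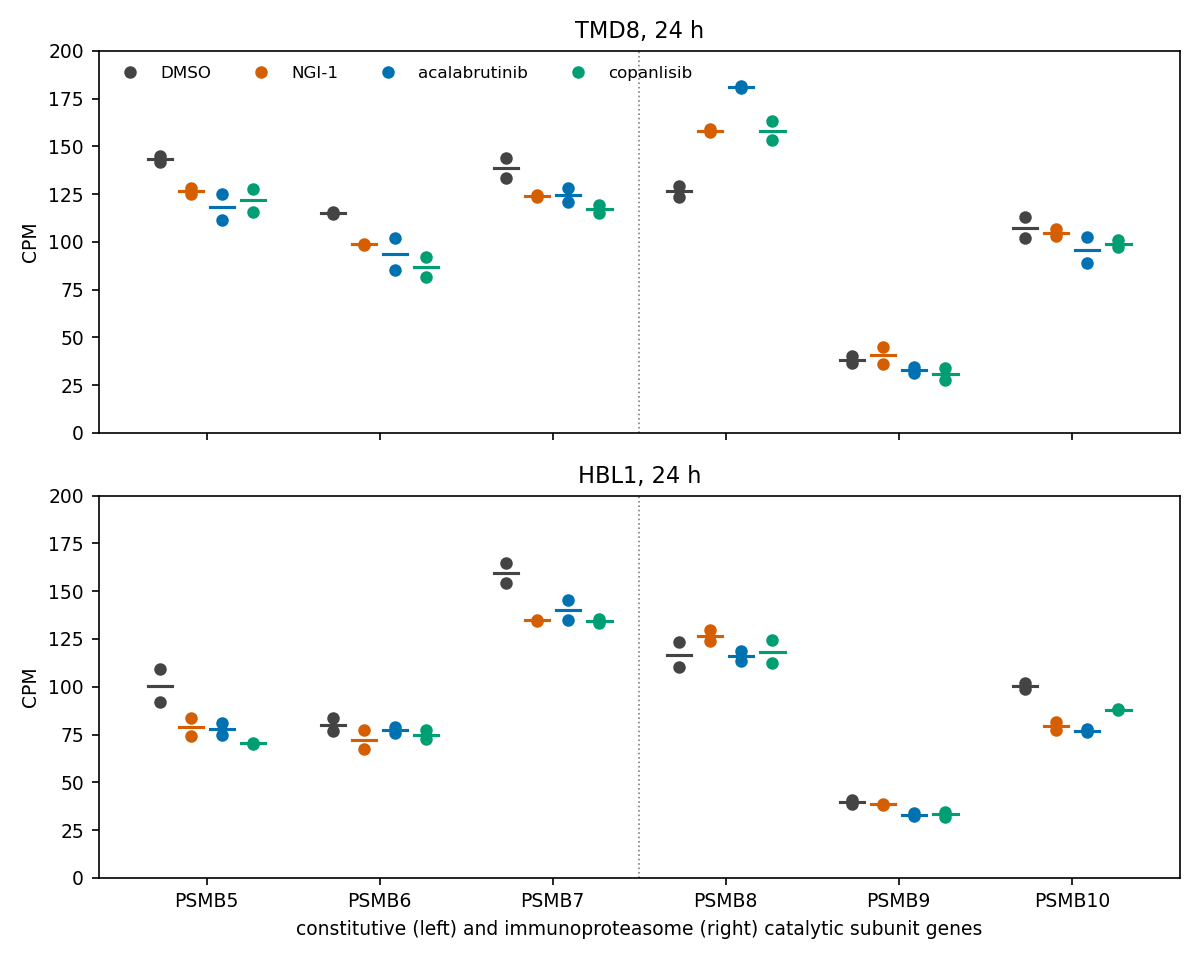
CPM (y axis) of the 3 constitutive and the 3 immunoproteasome catalytic genes (x axis) in each library at 24 h, TMD8 above and HBL1 below. Points are libraries and lines are means of 2. PSMB8 in TMD8 is higher with all 3 compounds, from 153 to 182 CPM against 123 and 129 with DMSO, while PSMB5 is lower in both lines.

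As a description, the ratio of the summed CPM of PSMB8, PSMB9 and PSMB10 to that of PSMB5, PSMB6 and PSMB7 at 24 h was 0.647 and 0.725 in the TMD8 DMSO libraries. It was 0.846 and 0.892 with NGI-1, 0.899 and 0.944 with acalabrutinib, and 0.83 and 0.943 with copanlisib. In HBL1 it was 0.739 and 0.773 with DMSO, 0.847 and 0.865 with NGI-1, 0.77 and 0.762 with acalabrutinib, and 0.869 and 0.845 with copanlisib. All treated TMD8 libraries were above the DMSO libraries in this ratio, whereas both HBL1 acalabrutinib libraries fell within the DMSO range.

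Of the 6 ATPases of the 19S base, 4, 4 and 5 were lower in TMD8 with NGI-1, acalabrutinib and copanlisib, and 6, 5 and 6 in HBL1. PSMC3 stood in TMD8 at 227 and 215 CPM with DMSO, 168 and 164 with NGI-1, 168 and 151 with acalabrutinib and 167 and 133 with copanlisib, with no overlap. Its log2 changes were -0.41 ± 0.08 for NGI-1, -0.47 ± 0.08 for acalabrutinib and -0.56 ± 0.08 for copanlisib. PSMC4 and PSMC5 were the ATPases not called with NGI-1 in TMD8 (-0.06 and -0.15), and both were lower with every compound in HBL1. The line difference was called for neither.

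The non-ATPase subunits of the 19S particle held many of the larger changes. Of 11 genes, 10, 9 and 9 were lower in TMD8 with NGI-1, acalabrutinib and copanlisib, and 9, 8 and 10 in HBL1. PSMD1, the larger scaffold subunit of the base, stood in TMD8 at 291 and 257 CPM with DMSO, 196 and 171 with NGI-1, 199 and 168 with acalabrutinib and 203 and 161 with copanlisib. The log2 changes there were -0.58 ± 0.09 for NGI-1 (adjusted p = 2.4e-06), -0.58 ± 0.09 for acalabrutinib (adjusted p = 2.0e-06) and -0.59 ± 0.09 for copanlisib (adjusted p = 1.9e-06) by edgeR. In HBL1 it stood at 259 and 245 CPM with DMSO, 192 and 186 with NGI-1, 189 and 181 with acalabrutinib and 163 and 152 with copanlisib, with log2 changes of -0.41 ± 0.09 for NGI-1 (adjusted p = 0.00072), -0.45 ± 0.09 for acalabrutinib (adjusted p = 0.00030) and -0.67 ± 0.09 for copanlisib (adjusted p = 2.0e-07). Its treated and DMSO libraries did not overlap in either line, and these 6 calls held under every alternative.

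PSMD12, a scaffold subunit of the lid and the gene whose promoter with an antioxidant core is printed above, stood in TMD8 at 96.6 and 93.6 CPM with DMSO, 68.7 and 56.7 with NGI-1, 73.03 and 66.01 with acalabrutinib and 70.99 and 60.9 with copanlisib. Its log2 changes there were -0.60 ± 0.09 for NGI-1 (adjusted p = 1.1e-06), -0.45 ± 0.09 for acalabrutinib (adjusted p = 8.8e-05) and -0.53 ± 0.09 for copanlisib (adjusted p = 1.0e-05) by edgeR. In HBL1 the libraries held 106 and 103 CPM with DMSO, 73.7 and 72.7 with NGI-1, 82.1 and 81.5 with acalabrutinib and 65.7 and 73.4 with copanlisib, and its changes were -0.52 ± 0.09 for NGI-1, -0.36 ± 0.09 for acalabrutinib and -0.59 ± 0.09 for copanlisib. The groups did not overlap, and these calls also held under every alternative. PSMD11, another lid scaffold, stood in TMD8 at 146 and 132 CPM with DMSO, 113 and 106 with NGI-1, 111 and 103 with acalabrutinib and 117 and 97.8 with copanlisib and in HBL1 at 172 and 162 CPM with DMSO, 118 and 125 with NGI-1, 121 and 116 with acalabrutinib and 105 and 102 with copanlisib. Its largest change was with copanlisib in HBL1, -0.69 ± 0.08 (adjusted p = 8.4e-09, edgeR), against -0.37 ± 0.08 in TMD8. The TMD8 copanlisib call was lost without copanlisib replicate 2 (adjusted p = 0.052).

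PSMD2, the other scaffold of the base, stood in TMD8 at 651 and 617 CPM with DMSO, 526 and 482 with NGI-1, 539.7 and 463 with acalabrutinib and 527 and 416 with copanlisib. The HBL1 libraries held 803 and 745 CPM with DMSO, 663 and 632 with NGI-1, 617 and 592 with acalabrutinib and 533 and 526 with copanlisib. It was lower with every compound in both lines, by log2 changes from -0.55 to -0.26. PSMD14, the deubiquitinase, changed by -0.44, -0.37 and -0.41 in TMD8, all called, and by -0.29, -0.19 and -0.34 in HBL1, where the acalabrutinib change was not called. PSMD4, a ubiquitin receptor of the particle, had changes from -0.23 to -0.0034 and 1 call, with copanlisib in HBL1. PSMD6 was likewise called once, with NGI-1 in TMD8 (-0.25).

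Of the 3 chaperones of 19S assembly, 0, 1 and 1 were lower in TMD8 and 0 in HBL1, where edgeR gave 0 members of this class at an unadjusted p under 0.05. PSMD5 was called in no comparison with DMSO at 24 h. PSMD9 was called in none in TMD8, and without reads it could not be called in HBL1. PSMD10, known also as gankyrin, was lower with acalabrutinib (-0.30) and copanlisib (-0.34) in TMD8. The alternative caps split. PSME2, the beta subunit of PA28, stood in TMD8 at 257 and 253 CPM with DMSO, 178 and 187 with NGI-1, 166 and 181 with acalabrutinib and 161 and 177 with copanlisib. No treated library overlapped the DMSO libraries, and the changes were -0.48 ± 0.07 for NGI-1 (adjusted p = 2.4e-06), -0.55 ± 0.07 for acalabrutinib (adjusted p = 1.7e-07) and -0.59 ± 0.07 for copanlisib (adjusted p = 4.3e-08) by edgeR. In HBL1 the values were 285 and 282 CPM with DMSO, 243 and 248 with NGI-1, 217 and 239 with acalabrutinib and 207 and 215 with copanlisib, with changes of -0.21 ± 0.07 for NGI-1 (adjusted p = 0.039), -0.31 ± 0.07 for acalabrutinib (adjusted p = 0.0019) and -0.42 ± 0.07 for copanlisib (adjusted p = 2.0e-05). The HBL1 NGI-1 call was lost in 7 of 11 alternatives.

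PSME1, the alpha subunit and the partner of PSME2, stood in TMD8 at 232 and 234 CPM with DMSO, 213 and 221 with NGI-1, 201 and 202 with acalabrutinib and 213 and 209 with copanlisib. It was called with acalabrutinib in TMD8 alone (-0.21 ± 0.07, adjusted p = 0.024, edgeR), a call lost in 5 of 11 alternatives. The HBL1 values were 204 and 199 CPM with DMSO, 202 and 186 with NGI-1, 185 and 178 with acalabrutinib and 178 and 184 with copanlisib, with changes from -0.16 to -0.06, none called. PSME3 was lower with every compound, by log2 changes of -0.38, -0.45 and -0.36 in TMD8 and -0.37, -0.29 and -0.42 in HBL1. PSME4 was called in none, with values from -0.21 to 0.06. Of the 4 genes whose interferon core lies close to the start, PSMB8 was thus higher in TMD8 while PSME2 was lower there, and PSMB10 was lower in HBL1.

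The DMSO level itself moved between 3 and 24 h, and not alike in the lines. These comparisons use the same 24 h DMSO libraries as the comparisons above and are not independent of them. In HBL1, 31 of 41 members were higher in DMSO at 24 h than at 3 h and 0 lower by edgeR, against 20.8% and 19.2% of all genes, with a median log2 change of 0.31 over the 40 with reads. In TMD8, 8 were higher and 1 lower, against 16.9% and 15.9%, with a median of 0.11. PSMD1 in HBL1 went from 156 and 154 CPM at 3 h to 259 and 245 at 24 h, a log2 change of 0.70 ± 0.09. In TMD8 it went from 243 and 242 to 291 and 257, a change of 0.18 ± 0.09 that was not called (adjusted p = 0.12, edgeR). PSMD2 in HBL1 went from 494 and 491 CPM to 803 and 745, and in TMD8 from 496 and 531 to 651 and 617. PSMB9 rose in both lines: from 19.9 and 27.04 to 36.4 and 40.3 CPM in TMD8 (0.73 ± 0.15) and from 26.4 and 30.9 to 38.8 and 40.6 in HBL1 (0.47 ± 0.15). PSMD11 fell in TMD8, from 166 and 162 to 146 and 132 CPM, and rose in HBL1, from 124 and 129 to 172 and 162.

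Without DMSO replicate 1 of 3 h the HBL1 count fell from 31 to 19. The TMD8 count of 9 fell to 4 without DMSO replicate 1 of 3 h and to 5 without DMSO replicate 2 of 24 h, and the TMD8 PSMB9 call was lost without the former (adjusted p = 0.050).

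The difference between the lines in this DMSO change was tested for each gene. For 9 members the change was lower in TMD8 than in HBL1, and for 0 higher, against 6.86% and 6.32% of all genes. These were PSMD11, PSMD1, PSMB2, PSMD12, PSMC1, PSMD3, PSMC5, PSMD2 and PSMB4, with log2 differences from -0.65 to -0.33. The count fell to 2 without DMSO replicate 2 of 24 h in TMD8.

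Within a treated arm, 24 h was also compared with 3 h of the same arm, which does not use DMSO. In TMD8, 16 members fell and 2 rose with NGI-1 (18.5% and 20.9% of all genes), 16 and 2 with acalabrutinib (20.3% and 22.3%), and 22 and 2 with copanlisib (19.1% and 20%). The median log2 changes were -0.09, -0.15 and -0.22. In HBL1, 3 fell and 5 rose with NGI-1 (19.2% and 20.1%), 1 and 6 with acalabrutinib (17.1% and 16.1%), and 2 and 0 with copanlisib (16.8% and 14.9%), with medians of 0.06, 0.04 and -0.05 over the 40 with reads. The HBL1 medians of the treated arms were thus near 0, beside 0.31 in DMSO, and those of TMD8 were below 0, beside 0.11 in DMSO. The difference between arms in their change over time was not tested. PSMB8 rose over time in treated TMD8, by 0.34 ± 0.08 with NGI-1, 0.50 ± 0.08 with acalabrutinib and 0.21 ± 0.08 with copanlisib. Without copanlisib replicate 2 of 3 h, the TMD8 copanlisib count of 24 fell to 13, and without that of 24 h to 15. The TMD8 NGI-1 count of 18 fell to 10 without NGI-1 replicate 2 of 3 h.

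**Figure D5:**
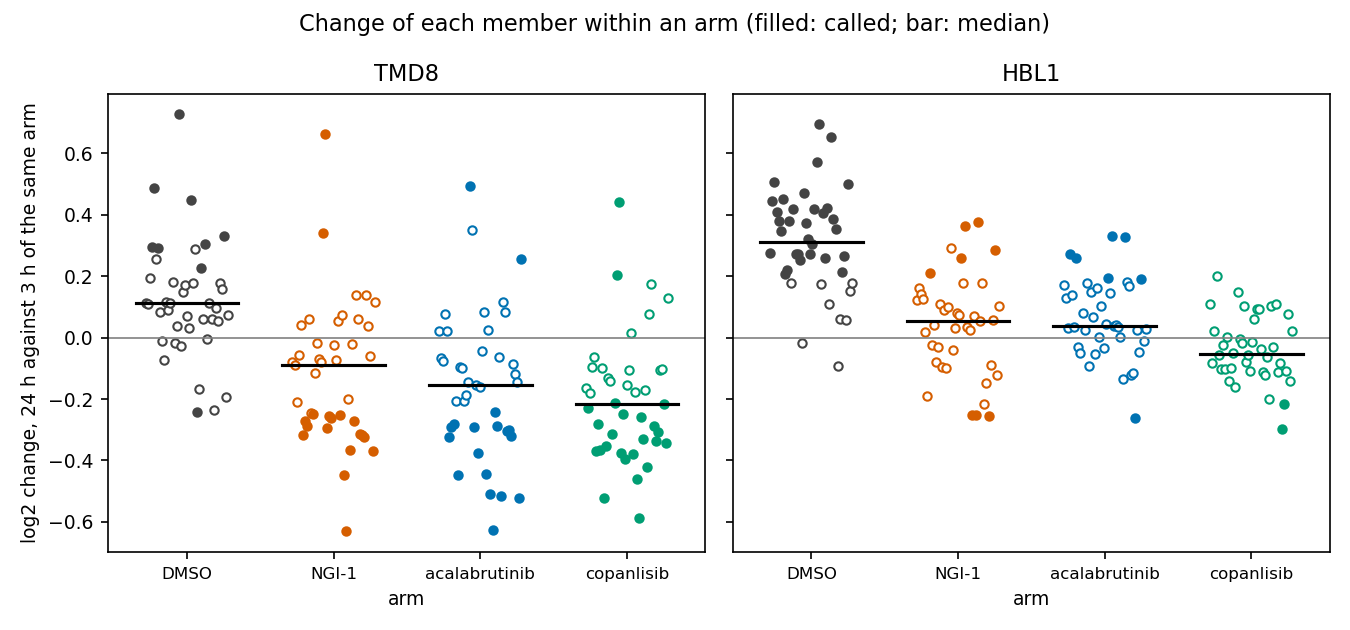
Log2 change of each member from 3 to 24 h within an arm (y axis) for DMSO and the 3 compounds (x axis), TMD8 left and HBL1 right. Filled points were called by edgeR at an adjusted p under 0.05, and bars are medians over the members with reads. The DMSO median is 0.11 in TMD8 and 0.31 in HBL1, and the medians of treated arms lie between -0.22 and 0.06.

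Whether a compound acted differently in the 2 lines at 24 h was tested as the TMD8 change minus the HBL1 change. With acalabrutinib 1 member differed, PSMB8, by 0.53 ± 0.12 on the log2 scale (adjusted p = 0.0045, edgeR), while 4.25% of all genes differed in either direction. This call was lost without DMSO replicate 1 of HBL1 (adjusted p = 0.059). With NGI-1 and copanlisib edgeR called 0 members, against 2.51% and 4.18% of all genes. At an unadjusted p under 0.05 there were 3 and 6 members, against 13.4% and 16.5% of all genes, and DESeq2 called 0 for each. For PSMB8 the differences were 0.21 ± 0.12 with NGI-1 and 0.30 ± 0.12 with copanlisib. A difference that was not called is not shown to be absent.

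The compounds were also compared directly with each other at 24 h, in 3 pairs per line, each at its single dose. Of these 6 comparisons 1 gave a member. PSMD2 was higher with NGI-1 (663 and 632 CPM) than with copanlisib (533 and 526 CPM) in HBL1, by 0.29 ± 0.08 (adjusted p = 0.021, edgeR), where 5% of all genes were called. That call was lost without any 1 of the 4 libraries (highest adjusted p = 0.29). The other pairs gave 0 members by edgeR. Of all genes, NGI-1 against acalabrutinib called 1.31% in TMD8 and 3.18% in HBL1, NGI-1 against copanlisib 1.43% in TMD8, and copanlisib against acalabrutinib 0.497% in TMD8 and 0.101% in HBL1. At an unadjusted p under 0.05, NGI-1 against acalabrutinib had 2 members in TMD8 and 0 in HBL1, against 8.78% and 13.5% of all genes. NGI-1 against copanlisib in TMD8 had 3, against 8.59%. Copanlisib against acalabrutinib had 2 in TMD8, against 7.13%, and 12 in HBL1, against 7.43%. By DESeq2, 0 members were called in these other pairs. The members' median difference was 0.10 for NGI-1 minus copanlisib in HBL1 and -0.11 for copanlisib minus acalabrutinib, and within 0.06 of 0 in the other pairs. In HBL1 both NGI-1 libraries lay above both copanlisib libraries for 23 members and below for 1, against 24.7% and 20.8% of all genes. Both copanlisib libraries lay above both acalabrutinib libraries for 1 member and below for 22, against 17.2% and 19.8%. In the remaining pairs 1 to 9 members lay above and 2 to 8 below, against 14.3% to 22.8% and 15.1% to 20%.

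Genes that build or serve the proteasome were read from lists of other proteins. Their counts and changes are those against DMSO at 24 h unless another time is given, in the order NGI-1, acalabrutinib and copanlisib. Beside them, 14.9%, 15.5% and 16% of all genes were lower and 15.7%, 15.5% and 15.8% higher in TMD8, and 11.4%, 11.4% and 17.8% lower and 7.95%, 7.62% and 12.7% higher in HBL1. With lists this short, 1 or 2 genes in a direction are near these shares. Of 6 assembly factors, 3 were lower with each compound in TMD8, and 3, 1 and 3 in HBL1 with NGI-1, acalabrutinib and copanlisib. PSMG1, a chaperone of the alpha ring, stood in TMD8 at 57.3 and 55.02 CPM with DMSO, 26.3 and 31.95 with NGI-1, 32.5 and 31.1 with acalabrutinib and 33.2 and 26.1 with copanlisib. It stood in HBL1 at 72.7 and 67.8 CPM with DMSO, 45.8 and 48.7 with NGI-1, 44.5 and 47.8 with acalabrutinib and 37.6 and 41.1 with copanlisib. Its groups did not overlap, and its log2 changes were -0.95 ± 0.12 for NGI-1, -0.82 ± 0.11 for acalabrutinib and -0.92 ± 0.11 for copanlisib in TMD8 and -0.57, -0.61 and -0.84 in HBL1, all called. PSMG1 also rose in DMSO from 3 to 24 h, by 0.53 in TMD8 and 0.81 in HBL1. POMP, which guides maturation of the catalytic core, changed by -0.47, -0.34 and -0.40 in TMD8, all called. In HBL1 it changed by -0.27, -0.17 and -0.39, the acalabrutinib value not called.

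Of 12 other proteins that belong to or associate with the proteasome, 4, 7 and 5 were lower and 1, 1 and 0 higher in TMD8. In HBL1 6, 4 and 6 were lower and 0, 1 and 1 higher. The list medians lay between -0.235 and -0.173. UCHL5, a deubiquitinase of the 19S particle, changed by -0.70, -0.59 and -0.69 in TMD8 and -0.49, -0.52 and -0.65 in HBL1. USP14, another such enzyme, changed by values from -0.35 to -0.29, each called. Of 14 genes of ubiquitin supply and shuttling, 4, 4 and 3 were lower in TMD8 and 2, 3 and 4 in HBL1, none higher, with medians from -0.20 to -0.04.

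Genes of the NRF1 pathway were called in both directions at 24 h. Of 11 genes, 4, 2 and 2 were higher and 1, 2 and 3 lower in TMD8, against 15.5% to 15.8% of all genes higher and 14.9% to 16% lower. In HBL1 3, 1 and 1 were higher and 4, 2 and 5 lower, against 7.95%, 7.62% and 12.7% higher and 11.4%, 11.4% and 17.8% lower. The acalabrutinib counts were thus near those of all genes. NFE2L1, which encodes NRF1, was higher with NGI-1 in TMD8 at 3 h, at 454.5 and 386 CPM against 253 and 261 with DMSO (0.71 ± 0.09, adjusted p = 2.0e-06, edgeR). It was also higher there at 6 h, at 364 and 354 CPM against 234 and 229 (0.63 ± 0.09, adjusted p = 8.9e-06). In HBL1 its NGI-1 changes were 0.06 at 3 h and 0.20 at 6 h, and acalabrutinib and copanlisib changed it by -0.14 to 0.09 at these times in the 2 lines, none called. At 24 h its changes with NGI-1, acalabrutinib and copanlisib were 0.08, -0.29 and -0.19 in TMD8, where the acalabrutinib change was called (adjusted p = 0.019, edgeR). In HBL1 they were -0.33, -0.29 and -0.38, all called lower (adjusted p = 0.0094, 0.022 and 0.0016). In DMSO NFE2L1 fell from 3 to 24 h, by 0.52 in TMD8 and 0.59 in HBL1. NGLY1 was higher in TMD8 with each compound (0.34, 0.32 and 0.23) and called in none in HBL1. DDI2 was called in none, with values from -0.35 to -0.26. SYVN1, a ubiquitin ligase of the endoplasmic reticulum on the same list, was higher with each compound in both lines, from 0.59 to 1.08.

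Around the immunoproteasome, the MHC class I antigen processing list held more higher than lower genes in TMD8. Of its 15 genes at 24 h, 13, 6 and 9 were higher and 0 lower with NGI-1, acalabrutinib and copanlisib, with medians of 0.52, 0.28 and 0.35, against 15.5% to 15.8% of all genes higher. In HBL1 4, 2 and 4 were higher and 0, 2 and 4 lower, with medians of 0.06, 0.09 and 0.14, against 7.62% to 12.7% of all genes higher and 11.4% to 17.8% lower. HLA-B, a class I heavy chain, changed by 0.57, 0.56 and 0.65 in TMD8. TAP1, a subunit of the peptide transporter encoded beside PSMB9, was higher with NGI-1 in TMD8 (0.45) and lower with copanlisib in HBL1 (-0.28). TAP2 was called in none in TMD8 and lower with acalabrutinib (-0.36) and copanlisib (-0.35) in HBL1. The list also holds endoplasmic reticulum chaperones: CALR, calreticulin, was higher with NGI-1 in both lines (0.91 and 0.73).

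Of 10 regulators of immunoproteasome genes at 24 h, 6, 4 and 5 were higher and 0, 0 and 1 lower in TMD8, with medians of 0.33, 0.24 and 0.27. In HBL1 1, 1 and 2 were higher and 1, 1 and 1 lower, which is near the shares of all genes given above, with medians of 0.01, -0.02 and 0.05. NLRC5, the transactivator of class I genes, stood in TMD8 at 73.6 and 77.1 CPM with DMSO, 95.7 and 106 with NGI-1, 111 and 128 with acalabrutinib and 101 and 135 with copanlisib. The groups did not overlap, and the changes were 0.42 ± 0.12 for NGI-1 (adjusted p = 0.0081), 0.67 ± 0.12 for acalabrutinib (adjusted p = 3.9e-05) and 0.64 ± 0.12 for copanlisib (adjusted p = 7.5e-05) by edgeR. In HBL1 none was called (-0.24, 0.11 and 0.26). The line difference for NLRC5 was 0.65 with NGI-1 (adjusted p = 0.026, edgeR), 0.56 with acalabrutinib (adjusted p = 0.049) and 0.38 with copanlisib (adjusted p = 0.24). IRF1 was called in none at 24 h, with values from -0.40 to 0.22, and was lower with acalabrutinib in HBL1 at 6 h (-0.67 ± 0.165, adjusted p = 0.0094, edgeR). Whether these regulators had a part in the PSMB8 change was not tested.

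Of 8 heat shock genes, which are induced with proteasome genes under protein stress, 5 were lower with each compound in TMD8 and 4, 5 and 4 in HBL1, none higher, with medians from -0.585 to -0.352. HSP90AA1, the inducible HSP90, changed by -0.70, -0.64 and -0.68 in TMD8 and -0.65, -0.67 and -0.89 in HBL1. In DMSO from 3 to 24 h, 6 of these 8 genes rose in TMD8 and 4 in HBL1, with medians of 0.79 and 0.38, and none fell. The shares of all genes for this comparison are those given above with the DMSO change of the members. Their part in the changes of the proteasome genes was not tested.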

How the data were processed

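The deposited table gives raw counts of reads per gene, which the authors made with HTSeq on human genome build hg19, per the submitters' processing notes. The aligner, versions and strand setting are not given in the sources used here. From these counts, edgeR 4.0.16 (R 4.3.3, limma 3.58.1) fitted 24 group means to the 48 libraries at once with TMM scaling, its default filter by group (13881 of 25066 genes tested) and 24 residual degrees of freedom. The quasi-likelihood test was applied to 37 comparisons, with Benjamini-Hochberg adjustment within each and a threshold of 0.05. Genes without an ID (3449) held 0.815% of reads. CPM are on TMM-scaled library sizes, with a prior count of 2 where log2 CPM were used. The common biological coefficient of variation was 7.34%, and with 2 libraries a group small changes are not detectable.

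The members and gene lists were chosen with earlier results of these data known, and 7 comparisons (24 h against 3 h within a treated arm, and the line difference of the DMSO change) were chosen after values were seen. Values per library are given for the catalytic genes, PSME1, PSME2 and, for each compound, the 3 members with the largest change at 24 h in the line that changed less. Others are named by smallest adjusted p or by name. PSMC3, PSMD2, PSMD4, PSMD6, PSMA1, PSMA3, PSMA7, PSMB2, PSMB4, PSMC4, PSMC5, PSMD10, PSMD14 and PSME3 at 24 h were chosen to be named after their values were seen. Alternatives were DESeq2 1.42.0, other size factors, other filters, a replicate block, a fit per line and leaving out each library. The scripts were tested on simulated data.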

Additional observations from a re-analysis of the deposited data

Results flagged for a closer look

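Effects that differed between the lines by a test of the difference itself were found for 10 values of the members. PSMB8, the immunoproteasome gene that replaces PSMB5, changed more in TMD8 than in HBL1 with acalabrutinib at 24 h, by 0.53 ± 0.12 on the log2 scale (adjusted p = 0.0045, edgeR's quasi-likelihood test). The other values concern the change of DMSO cultures from 3 to 24 h, which was lower in TMD8 than in HBL1. The log2 difference was -0.65 ± 0.11 for PSMD11 (adjusted p = 5.9e-05, edgeR) and -0.52 ± 0.13 for PSMD1 (adjusted p = 0.0036), both scaffold subunits of the 19S particle. For other 19S genes it was -0.43 for PSMD12, -0.40 for PSMC1, -0.39 for PSMD3, -0.39 for PSMC5 and -0.35 for PSMD2. For subunits of the beta ring it was -0.45 for PSMB2 and -0.33 for PSMB4. PSMD11 fell over this time in TMD8 and rose in HBL1.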

How the results depend on the processing

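None of the calls of members counted here reversed direction. Changes that were not called were not followed across the alternatives. Of 329 calls of members, 313 stayed past the threshold with DESeq2, 309 with RLE size factors, 272 without a filter on low counts and 315 with a stricter filter. Fitting each line separately kept 287 of 290. Leaving out a library kept 1247 of 1588, and 106 of the 170 calls at 24 h against DMSO were kept without each of the 4 libraries in turn. A group that loses a library keeps a lone sample, which is assumed to vary like the other groups. The counts of called members below moved by more than 1.5 times, and the cause was not tested. Those of the compounds at 24 h in TMD8, given last, moved by less.

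For copanlisib at 6 h in TMD8 (1 member), the count was 3 with DESeq2, 2 with RLE size factors, 2 without a filter, 6 with a stricter filter and 3 with a separate fit. In HBL1 it was 2 with a stricter filter and 2 with a separate fit. NGI-1 against copanlisib in HBL1 gave 2 with a separate fit. Without a filter, DMSO over time in HBL1 gave 20, acalabrutinib over time in HBL1 3, copanlisib over time in HBL1 1, and the line difference of the DMSO change 2.

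The replicate numbers do not pair libraries by the labels, and same-numbered libraries deviated together with a correlation over 0.1 in 11 of 18 pairs (range 0.0467 to 0.237, median 0.128). With the replicate block, acalabrutinib at 6 h in TMD8 gave 1 member, copanlisib at 6 h 4 in TMD8 and 2 in HBL1, NGI-1 against copanlisib in HBL1 4, and DMSO over time in TMD8 14. With a replicate block within line and time, NGI-1, acalabrutinib and copanlisib at 6 h gave 2, 2 and 8 in TMD8 and 1, 7 and 7 in HBL1. At 3 h, NGI-1 and copanlisib in TMD8 and copanlisib in HBL1 gave 1 each. The line differences gave 2, 3 and 6, NGI-1 against acalabrutinib and against copanlisib in TMD8 1 each, NGI-1 against copanlisib in HBL1 10, and copanlisib against acalabrutinib 2 in TMD8 and 9 in HBL1. DMSO over time gave 20 in TMD8, the HBL1 arms over time 15, 11 and 5, and the line difference of the DMSO change 16. All 329 calls were kept under both blocks.

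Leaving out 1 library gave 12 to 22 members for NGI-1 and 15 to 21 for acalabrutinib at 24 h in HBL1. It gave 0 for copanlisib at 6 h in TMD8, 0 to 2 in HBL1, 0 to 1 for the line difference with acalabrutinib or copanlisib, and 0 to 1 for NGI-1 against copanlisib in HBL1. DMSO over time gave 4 to 10 in TMD8 and 19 to 28 in HBL1, and its line difference 2 to 8. Over time NGI-1 gave 10 to 17 in TMD8 and 5 to 6 in HBL1, acalabrutinib 2 to 6 in HBL1, and copanlisib 13 to 25 in TMD8 and 1 to 2 in HBL1. At 24 h, TMD8 gave 25 to 26 with NGI-1, 20 to 25 with acalabrutinib and 25 to 30 with copanlisib.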
